A study of Mus musculus with 6 samples.

Results

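The genes described here encode insulin-like growth factor 1 (Igf1), the 2 receptor tyrosine kinases through which it and insulin act (Igf1r and Insr), and 6 secreted binding proteins (Igfbp2, Igfbp3, Igfbp4, Igfbp5, Igfbp6 and Igfbp7). The 9 were picked by symbol from a table of 55487 genes, and all had enough counts to be tested among 11224 genes. RNA sequencing measured them in muscle stem cells, the precursors that rebuild muscle fibres, of mice 10 weeks old. All libraries were made 60 h after CTX (cardiotoxin, a venom toxin that kills muscle fibres). Control libraries 1 to 3 carried the genotype label WT and the treatment label Oil, and knockout (KO) libraries 1 to 3 carried the genotype label KO, for Setdb1, and the treatment label Tamoxifen. Setdb1 encodes a histone H3 lysine 9 methyltransferase that acts in gene silencing. Genotype and tamoxifen changed together and cannot be told apart, and the sources used here do not name the recombinase that deletes Setdb1, its promoter or the number of animals behind a library. The labels call the libraries biological replicates, so p-values measure the spread between these 6 libraries.

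IGF1 binds the IGF1 receptor at the cell surface. The activated receptor, like the insulin receptor, phosphorylates adaptors of the insulin receptor substrate family, which switch on PI3 kinase, AKT and mTOR and keep FOXO transcription factors out of the nucleus. The binding proteins hold IGFs outside the cell, where they can carry, store or block them, and proteases release the ligand again. In muscle, IGF1 is known to favour both proliferation and differentiation of muscle stem cells. IGFBP7 is the distant relative of the family and binds IGFs only weakly.

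Libraries held between 4052569 and 5690844 counts. KO library 1 had the fewest, and a single structural RNA gene, CT010467.1, took 38.4% of its counts against 28.6% to 32.2% in the other 5. Levels are given as CPM, the count scaled to a common library size with TMM factors that correct for composition, and 1 CPM was worth 3.76 to 5.41 counts. Setdb1 itself was measured at 34.8, 40.5 and 32.1 CPM in the controls against 16.5, 12.7 and 14.7 CPM in KO cells, and the groups did not overlap. Muscle stem cell markers were present: the summed level of the 10 genes of that list ran from 1281 to 1366 CPM in controls and from 1461 to 1880 CPM in KO cells. Of these markers Myod1 passed the test and was higher in KO cells, and Pax7 was at 26.9 ± 5.70 and 26.9 ± 6.56 CPM (SD, n = 3 each). Transcripts of other cells varied between libraries. Neutrophil markers summed to 1976 CPM (control library 3), 699 CPM (KO library 2) and 264 CPM (KO library 3), and to between 0.8 and 1.67 CPM in the other 3 libraries, with none of 5 tested markers passing. The 10 fibroblast markers (among them Col1a1, Col1a2, Col3a1 and Dcn) summed to 1880, 840 and 1329 CPM in control libraries 1 to 3 and to 1566, 1591 and 2444 CPM in KO libraries 1 to 3, so control library 2 was the lowest. None of the 9 tested fibroblast markers passed, although all 9 had a positive fold change, and none of the 10 was at 0 throughout. Tendon markers, led by Thbs4, were also lowest in control library 2 (347 CPM, against 725 to 1145 CPM in the 5 other libraries), and none of 5 passed. The 7 mural cell markers summed to between 57.0 and 86.8 CPM in controls and between 102 and 122 CPM in KO cells. Acta2 and Tagln among them rose, from means of 38.9 and 6.44 CPM to 64.4 and 18.5 CPM. Rgs5, Pdgfrb and Cspg4 did not pass (log2 fold changes of -0.002, 0.295 and 0.765), and Myh11 and Mcam had too few counts to be tested.

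Among the members, Igfbp3 fell in KO cells, and the other 8 did not pass the test. Over all genes tested with edgeR's quasi-likelihood test at an adjusted p under 0.05, 2.83% were called, 2.22% higher and 0.615% lower in KO cells. The members' count was 0 higher and 1 lower of 9. At an unadjusted p under 0.05, 2 members (Igfbp2 and Igfbp3, both lower) were found, against 17.7% of all genes tested. Groups did not overlap in 3 members (Igfbp2 and Igfbp3 lower, Igfbp4 higher), against 24.3% of all genes tested. The median log2 fold change of the 9 was 0.01, beside 0.0074 over all genes tested, so apart from Igfbp3 the members' shares were near the background.

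**Figure D1:**
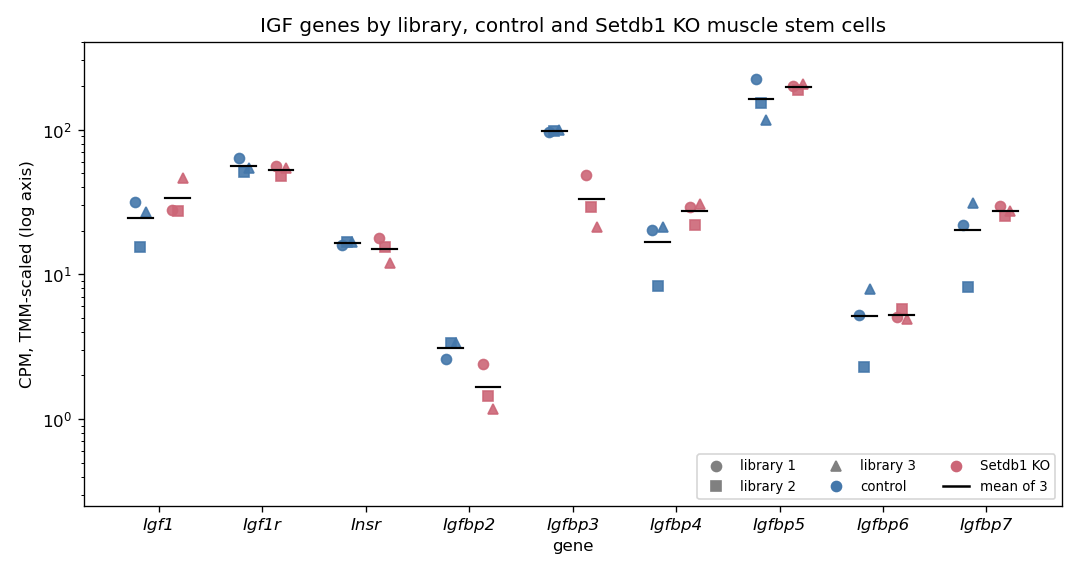
CPM on a log axis (TMM-scaled) of each of the 9 genes in every library, with controls in blue, Setdb1 KO in red, a marker shape for the library number and a bar for the mean of 3. The 3 Igfbp3 control points lie together at 95.5 to 99.9 CPM and the KO points lie apart from them at 21.1 to 48.7 CPM, while control library 2 is the lowest point of Igf1, Igfbp4, Igfbp6 and Igfbp7.

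The starts of 3 binding protein genes are shown as examples of 3 patterns: Igfbp3 was the called gene, Igfbp4 was the only member whose KO libraries all lay above the controls, and Igfbp5 had the highest CPM of the 9 in each of the 6 libraries. Each run is the 100 bases before the RefSeq gene start (GRCm38.p6), written 5′ to 3′ on the gene's own strand. Igfbp3 lies at chr11:7213924-7214023 on the minus strand, Igfbp4 at chr11:99041144-99041243 on the plus strand and Igfbp5 at chr1:72874866-72874965 on the minus strand. Capitals mark a match to the TATA box words TATAAA or TATATA, searched on both strands in the last 50 bases before the start.
Igfbp3: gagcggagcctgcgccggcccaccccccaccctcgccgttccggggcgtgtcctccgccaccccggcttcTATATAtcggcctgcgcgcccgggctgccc
Igfbp4: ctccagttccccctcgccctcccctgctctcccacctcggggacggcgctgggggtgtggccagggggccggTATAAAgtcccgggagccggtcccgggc
Igfbp5: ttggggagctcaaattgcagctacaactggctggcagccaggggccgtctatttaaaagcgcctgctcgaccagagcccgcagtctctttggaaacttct
The Igfbp3 word starts 30 bases and the Igfbp4 word 28 bases before the gene start, and TATATA reads the same on both strands. Of 9 promoters listed for 8 members (Igfbp2 has 2), these 2 held such a word, as did 4.5% of 32841 promoters. Other forms of the TATA box and bases further from the start were not searched. A run without capitals, such as that of Igfbp5, is therefore not shown to lack a TATA box. The 250 bases before the Igfbp3 start held 32 CpG dinucleotides, a count reached by 4.6% of promoters, against 22 for Igfbp4, 10 for Igfbp5 and a median of 6 over all promoters. Igf1r had the most among the members, with 42, and Igf1 the fewest, with 5.

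Igfbp3 encodes the main carrier of IGFs in blood and is also made locally by many cells. The gene (ENSMUSG00000020427) lies on chromosome 11 from 7206086 to 7213923 on the minus strand (GRCm38). It was measured at 95.5, 98.1 and 99.9 CPM in the controls whereas KO libraries 1 to 3 held 48.7, 29.2 and 21.1 CPM. The controls were nearly equal, with an SD of 2.3% of their mean, while the KO libraries spread over an SD of 43% of theirs, and the groups did not overlap. These levels rest on 477, 470 and 541 counts in the controls and 183, 142 and 108 in KO cells. The fold change was 0.337 between group means, a log2 fold change of -1.59 (SE 0.28, 95% interval -2.26 to -0.91, edgeR adjusted p = 0.0407). The call was narrow and was made in 11 of 16 alternative settings, 1 of which kept only KO library 1 of its group. Leaving out control library 1, 2 or 3 or KO library 2 gave edgeR adjusted p-values of 0.11, 0.114, 0.117 and 0.156. Upper quartile scaling gave 0.0618. In these settings without a call the log2 fold changes lay between -1.62 and -1.51. The highest KO value was in KO library 1, the library with the most CT010467.1 counts, and without it the log2 fold change was -1.96 (edgeR adjusted p = 4.11e-05). In the 3 libraries with few neutrophil transcripts (control 1 and 2, KO 1), an alternative chosen after seeing the data, the log2 fold change was -1.04. Fewer cells making Igfbp3 and less Igfbp3 RNA per cell cannot be told apart in these bulk samples, here and for the genes that follow.

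No other gene near Igfbp3 could be compared. Its neighbour Igfbp1, a liver binding protein gene that starts 16.1 kb away, had 0 counts in all 6 libraries. By a floor of 3 counts in each library, this allows a level of up to 0.554 to 0.798 CPM. None of the 11 genes whose start lies within 500 kb of that of Igfbp3 had enough counts to be tested.

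The genes whose centred log2 CPM followed that of Igfbp3 most closely over the 6 libraries were Setdb1, Mest and Gm25890. Their root mean square differences from it were 0.37, 0.42 and 0.48 on the log2 scale, the smallest among 7337 genes with a mean of at least 10 CPM. Mest, an imprinted gene expressed from the paternal copy, was at 46.1, 45.7 and 39.2 CPM in controls and 21.5, 18.7 and 19.7 CPM in KO cells. Gm25890 is annotated as a small nuclear RNA gene. All 3 were lower in every KO library than in every control, which their choice by likeness to Igfbp3 made likely. Setdb1 is also the gene deleted in KO cells, so its fall was part of the design. None of the 3 showed the spread of Igfbp3 between KO libraries.

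Igfbp2 was the other member with lower levels in every KO library. It encodes a binding protein with a high affinity for IGF2. It was measured at 2.60, 3.34 and 3.33 CPM in controls and at 2.39, 1.44 and 1.17 CPM in KO cells. The groups only just failed to overlap, since control library 1 and KO library 1 differed by 13 against 9 counts. The log2 fold change was -0.92 (SE 0.43, edgeR adjusted p = 0.278) and rested on 69 counts in all, so a change of this size was not resolved at this depth.

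Igfbp5 encodes the binding protein known for its rise when muscle cells differentiate. It was measured at 223, 153 and 115 CPM in controls and at 200, 188 and 206 CPM in KO cells. The KO values lay within the range of the controls, and the log2 fold change was 0.28 (SE 0.21, 95% interval -0.20 to 0.75, edgeR adjusted p = 0.545). It was 0.55 without control library 1 (edgeR adjusted p = 0.0871) and 0.07 without control library 3. Igfbp5 and Igfbp2 are neighbours that face each other on chromosome 1 with 5457 bases between them, and their fold changes had opposite signs.

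Igfbp4 encodes a binding protein that holds IGFs away from the receptor until the protease PAPP-A cuts it. It was measured at 20.2, 8.35 and 21.2 CPM in controls and at 29.0, 21.8 and 30.7 CPM in KO cells. All KO libraries lay above all controls, by a margin of under 1 CPM between control library 3 and KO library 2. The log2 fold change was 0.70 (SE 0.34, edgeR adjusted p = 0.341). It was 0.38 without control library 2, and without the filter on low counts the adjusted p was 0.023.

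Igfbp7 was measured at 21.8, 8.14 and 30.8 CPM in controls and at 29.5, 25.3 and 27.2 CPM in KO cells. Control library 3 was the highest and control library 2 the lowest of the 6, so the KO libraries lay between controls. The log2 fold change was 0.42 (SE 0.46, edgeR adjusted p = 0.704). It was 0.04 without control library 2 and 0.85 without control library 3. Its exons overlap those of Polr2b on the opposite strand by 85 bases. With both strands searched, 2.99% of its 50-base words also occur in 1 other gene, which may be this same overlap. A few of its reads may therefore belong elsewhere. The same holds for Igfbp4, with 1.715% of its words shared with 193 genes, and for Insr, with 0.225% shared with 162 genes. Igfbp6, whose product prefers IGF2, was at 5.21, 2.30 and 7.94 CPM in controls and 5.05, 5.75 and 4.89 CPM in KO cells. Again the controls enclosed the KO libraries (log2 fold change 0.01, SE 0.38, edgeR adjusted p = 0.992). The value was -0.34 without control library 2 and 0.47 without control library 3.

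**Figure D2:**
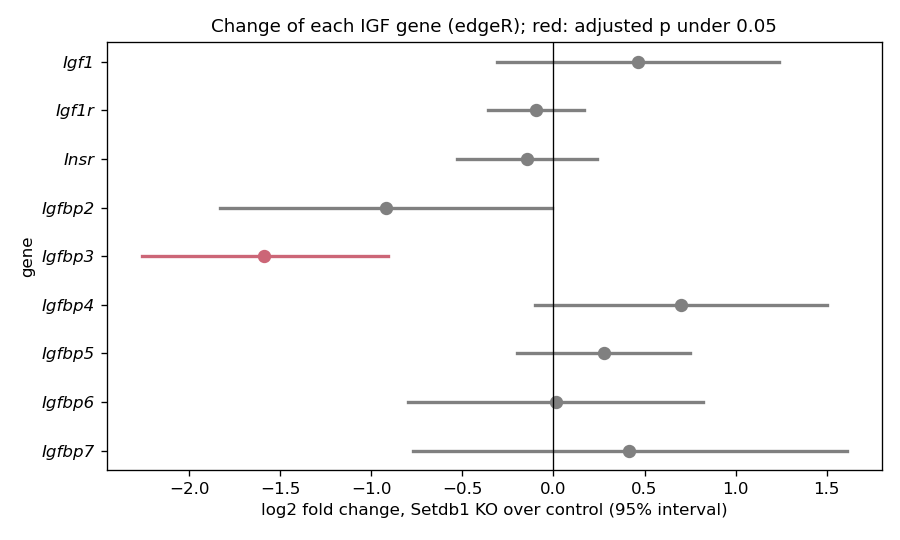
Log2 fold change of Setdb1 KO over control (horizontal axis) for each gene, with its 95% interval from the edgeR fit over 3 libraries a group; red marks an adjusted p under 0.05. The interval of Igfbp3 runs from -2.26 to -0.91 and lies apart from 0, that of Igfbp2 ends at -0.01, and those of the other 7 genes span 0.

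The ligand gene Igf1 was measured at 31.4, 15.4 and 26.8 CPM in controls and at 27.7, 27.3 and 46.3 CPM in KO cells. Its highest value was in KO library 3 and its lowest in control library 2, and the groups overlapped (log2 fold change 0.46, SE 0.32, 95% interval -0.31 to 1.24, edgeR adjusted p = 0.517). Fibroblast markers were likewise highest in KO library 3 and lowest in control library 2. The order of the libraries by Igf1 was that of the fibroblast markers, save that KO libraries 1 and 2, which were close in both, changed places. The log2 fold change of Igf1 was 0.21 without control library 2 and 0.15 without KO library 3. Macrophages are another known source of IGF1 in injured muscle. Their 8 markers summed to between 10.4 and 93.1 CPM in controls and between 10.9 and 39.2 CPM in KO cells, and none of 4 tested passed. Adgre1 lay between 0 and 0.798 CPM and Csf1r between 0.739 and 2.26 CPM over the 6 libraries. Mrc1 was at 2.20, 1.67 and 3.33 CPM in controls and at 1.86, 2.46 and 4.5 CPM in KO cells. Its lowest and highest values were thus in the same libraries as those of Igf1. Cd68, between 1.23 and 2.80 CPM, was highest in control library 1 and lowest in KO library 2. Lyz2 made up most of the highest sum with 76.1 CPM in control library 3.

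Control library 2 was the lowest of the 6 libraries for 4 of the 9 members (Igf1, Igfbp4, Igfbp6 and Igfbp7). It also held the lowest sum of fibroblast, tendon, endothelial, mural and macrophage markers. Its macrophage sum, 10.4 CPM, was close to that of KO library 1 (10.9 CPM). Its sums of muscle stem cell and neutrophil markers were not the lowest. Endothelial markers were low throughout, at sums of 5.43 to 14.02 CPM in controls and 12.1 to 15.2 CPM in KO cells, with none of 2 tested passing and Pecam1 at 0 in KO libraries 2 and 3. The part of all these cells in the members' levels was not tested. Igfbp3 did not share this order, since its level in control library 2, 98.1 CPM, lay between those of the other controls.

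**Figure D3:**
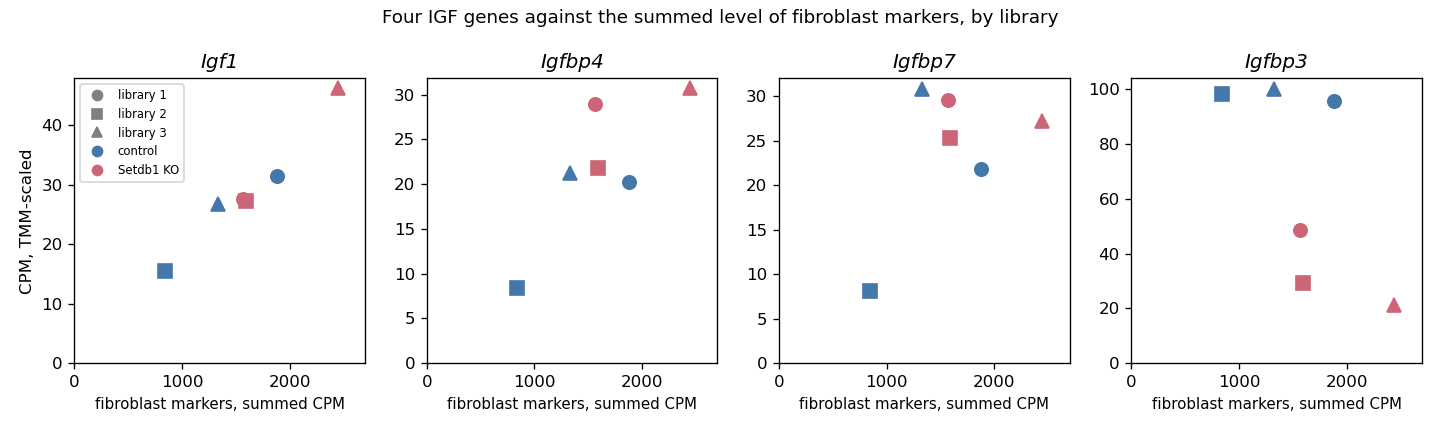
CPM of Igf1, Igfbp4, Igfbp7 and Igfbp3 (vertical axes, TMM-scaled, from 0) against the summed CPM of 10 fibroblast markers (horizontal axes) in each library, with controls in blue and Setdb1 KO in red. Control library 2, with 840 CPM of markers, has the lowest Igf1, Igfbp4 and Igfbp7, while Igfbp3 in that library (98.1 CPM) is close to the other controls; KO library 3, with 2444 CPM of markers, has the lowest Igfbp3 and the highest Igf1.

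The receptors differed least between libraries. Igf1r was measured at 63.3, 50.9 and 54.3 CPM in controls and at 55.9, 47.8 and 54.1 CPM in KO cells, and its highest value was 1.32 times its lowest. The groups overlapped, and the log2 fold change was -0.10 (SE 0.12, edgeR adjusted p = 0.733), with a 95% interval of the fold from 0.778 to 1.12. Insr was at 16.0, 16.7 and 16.8 CPM in controls and at 17.8, 15.4 and 11.9 CPM in KO cells, with KO libraries on both sides of the controls (log2 fold change -0.14, SE 0.18, edgeR adjusted p = 0.721). The 95% interval of the Insr fold ran from 0.694 to 1.18, so a halving of either receptor's transcript lies outside these intervals.

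Per length of merged exons, Igf1r exceeded Insr in every library, by 3.22, 2.49 and 2.64 times in controls and 2.55, 2.53 and 3.69 times in KO cells. The log2 ratio of Insr to Igf1r was -1.47 ± 0.20 in controls and -1.53 ± 0.31 in KO cells (SD, n = 3 each), and the difference of -0.06 was within the spread (exact permutation test, two-sided, p = 0.8, where 3 against 3 libraries cannot give less than 0.1).

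Compared per length, the order of the binding proteins changed at its top. In controls the levels in CPM per kb of exon were 31.3 ± 0.708 for Igfbp3, 27.3 ± 9.06 for Igfbp5, 16.8 ± 9.46 for Igfbp7, 4.63 ± 2.54 for Igfbp6, 3.76 ± 1.62 for Igfbp4 and 1.67 ± 0.228 for Igfbp2 (SD, n = 3). The 3 highest overlapped in part, since Igfbp5 was above Igfbp3 in control library 1 and below it in control libraries 2 and 3. This overlap depends on the length used: per kb of the longest transcript, Igfbp3 (39.5) was above Igfbp5 (37.1) in control library 1 too. In KO cells the order was Igfbp5 (33.0 ± 1.5), Igfbp7 (22.6 ± 1.77), Igfbp3 (10.5 ± 4.53), Igfbp4 (6.15 ± 1.07), Igfbp6 (4.70 ± 0.412) and Igfbp2 (0.903 ± 0.348), and the first 3 did not overlap. Igfbp3 and Igfbp4 overlapped in KO cells, since Igfbp4 (6.95) was above Igfbp3 (6.74) in KO library 3. This too depends on the length: per kb of the longest transcript, Igfbp3 (8.72) was above Igfbp4 (8.01) there. Lower down, per kb of exon, Igfbp6 and Igfbp4 overlapped in both groups. On the same scale Igf1r stood at 3.35 ± 0.380 and 3.13 ± 0.251, Igf1 at 2.48 ± 0.831 and 3.41 ± 1.10 and Insr at 1.20 ± 0.0311 and 1.10 ± 0.216 CPM per kb in controls and KO cells.

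Igfbp3 made up 31.7%, 45.2% and 35.3% of the summed Igfbp level per length in controls and 18.1%, 12.9% and 8.93% in KO libraries. Igfbp5 made up 38.5%, 36.8% and 21.3% in controls and 38.9%, 43.3% and 45.4% in KO libraries, and Igfbp7 between 9.71% and 28.2% in controls and between 28.5% and 29.8% in KO libraries. These shares add to a fixed whole, so a lower Igfbp3 raises the others. The summed level itself was 96.3, 69.4 and 90.4 CPM per kb in controls and 85.7, 72.4 and 75.5 in KO libraries, and the groups overlapped. The sum without Igfbp3 was 65.8, 38.0 and 58.5 in controls and 70.2, 63.1 and 68.7 in KO libraries, which overlapped as well.

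**Figure D4:**
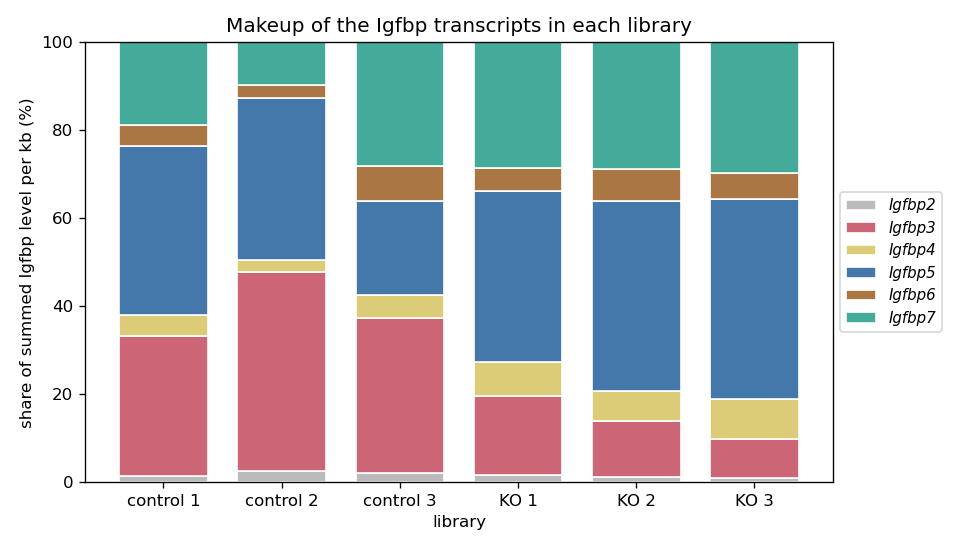
Share of each of the 6 binding protein genes in their summed level per kb of exon (vertical axis, percent from 0 to 100) in every library. The red band, Igfbp3, takes 31.7% to 45.2% in control libraries and 8.93% to 18.1% in KO libraries.

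Igfbp5 transcripts stood to Igfbp3 transcripts, per length, as 1.21, 0.814 and 0.602 in controls and as 2.14, 3.36 and 5.07 in KO libraries. Every KO ratio lay above every control ratio, with mean log2 ratios of -0.25 ± 0.51 in controls and 1.73 ± 0.62 in KO libraries (SD, n = 3 each). The pair was chosen after its values were seen and holds the called gene, so the ratio is a description of the same Igfbp3 values and adds no support to them.

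Elsewhere in the pathway, the adaptor gene Irs1 fell and the other adaptor and kinase genes did not pass the test. Irs1 encodes insulin receptor substrate 1, which links both receptors to PI3 kinase (chromosome 1, 82233101 to 82291416, minus strand). It was measured at 38.6, 40.9 and 32.0 CPM in controls and at 16.8, 15.6 and 23.1 CPM in KO cells, and the groups did not overlap. The mean went from 37.2 ± 4.66 to 18.5 ± 4.01 CPM, a log2 fold change of -1.0 (SE 0.17, edgeR adjusted p = 0.00369). This call was made in all 16 alternative settings, with log2 fold changes from -1.30 to -0.89 and a largest adjusted p of 0.0379. Irs2, another substrate adaptor, named here after its values were seen, was at 54.5, 38.2 and 35.5 CPM in controls and 50.5, 38.8 and 46.1 CPM in KO cells, which overlapped (log2 fold change 0.08, SE 0.17).

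The list of adaptors, PI3 kinase and AKT genes had 21 tested members of 24. Of these 0 were higher and 1 lower, beside 2.22% and 0.615% of all genes tested. At an unadjusted p under 0.05, 2 were higher and 2 lower, against 17.7% of all genes tested in either direction. The median log2 fold change was 0.06 beside 0.0074 over all genes tested. Groups did not overlap in 4 of the 21, against 24.3% of all genes tested, so this count was not above the background. Of 15 genes of mTOR, GSK3 and FOXO, 15 were tested and none passed in edgeR, beside 2.83% of all genes tested. At an unadjusted p under 0.05 the count was 0 in either direction, against 17.7% of all genes tested. The median log2 fold change of this list was 0.02. Gsk3b, a kinase that AKT inhibits, was at 109 ± 16.7 and 106 ± 13.2 CPM, and Rictor, a subunit of mTOR complex 2, at 64.0 ± 9.42 and 53.2 ± 4.10 CPM (SD, n = 3 each).

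Pdk4, which encodes a kinase that turns glucose oxidation down, fell among 7 tested of 9 FOXO target genes. It was measured at 87.5, 82.2 and 67.4 CPM in controls and at 48.7, 55.03 and 54.7 CPM in KO cells, and the groups did not overlap (log2 fold change -0.58, SE 0.13, edgeR adjusted p = 0.0226). The call ended in limma-voom (adjusted p = 0.0555). It also ended on leaving out control library 1 (0.0806) or 2 (0.124) or KO library 1 (0.114), 2 (0.0732) or 3 (0.0573). The list's median was 0.30, beside 0.0074 over all genes tested. It had 1 member lower and 0 higher, beside 0.615% and 2.22% of all genes tested.

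Of the ligands and further binding genes, 2 of 8 had enough counts. Igf2r, the receptor that clears IGF2, was at 80.1 ± 19.8 CPM in controls and 99.2 ± 7.13 CPM in KO cells (adjusted p = 0.320 with edgeR), and the imprinted ligand gene Igf2 at 20.4 ± 3.78 and 22.6 ± 8.32 CPM (0.836). Neither passed, beside 2.83% of all genes tested, and neither had an unadjusted p under 0.05, beside 17.7%. In this list, that of mTOR, GSK3 and FOXO and that of the proteases, DESeq2 and limma-voom also called 0 genes. Ins1, Ins2, Insrr, Igfbp1, Igfbpl1 and Igfals were at 0 to 1.33 CPM in every library.

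Of 9 genes for proteases that cut the binding proteins and for inhibitors of these proteases, 5 were tested. None passed in edgeR, beside 2.83% of all genes tested. At an unadjusted p under 0.05, 1 was lower, against 17.7% of all genes tested in either direction. Pappa, the protease that cuts IGFBP4, was at 69.7, 76.6 and 55.2 CPM in controls and 142, 77.6 and 67.4 CPM in KO cells, which overlapped, with KO library 1 far above the other 5. Adam9, which encodes a membrane metalloprotease, was at 36.5 ± 3.95 CPM in controls and 40.7 ± 6.44 CPM in KO cells (SD, n = 3 each). Stc2, which encodes an inhibitor of the Pappa protease and was singled out after its values were seen, was at 11.6, 11.1 and 11.1 CPM in controls and at 6.38, 6.37 and 6.84 CPM in KO cells. The Stc2 groups were tight and did not overlap (log2 fold change -0.78, SE 0.21, edgeR adjusted p = 0.0608). It passed when mitochondrial and structural RNA genes were removed (0.048).

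**Figure D5:**
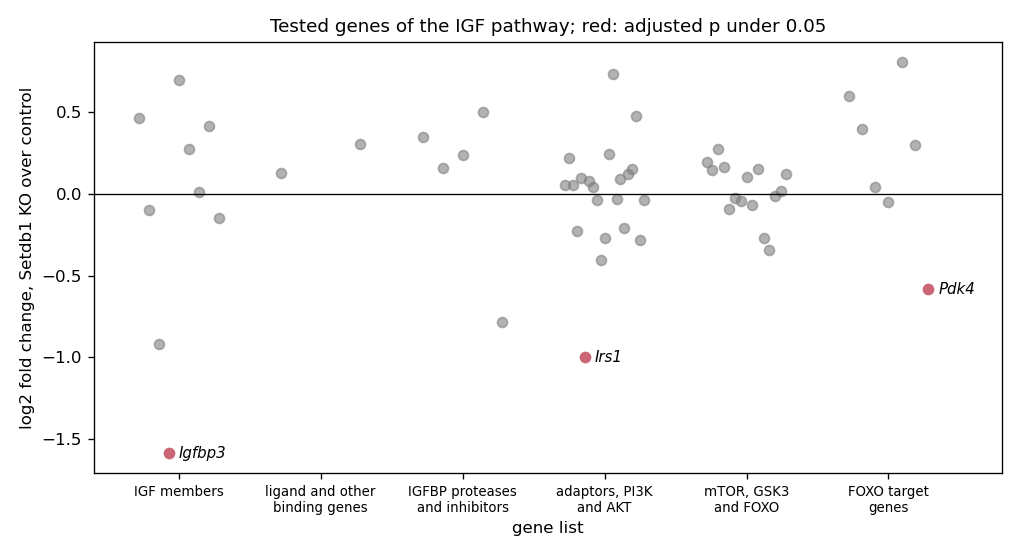
Log2 fold change of Setdb1 KO over control (vertical axis) of every tested gene of the 9 members and of 5 pathway lists (horizontal axis), in alphabetical order within a list; red points with names have an adjusted p under 0.05 in edgeR. Igfbp3 (-1.59), Irs1 (-1.0) and Pdk4 (-0.58) are the named points, and all lie below 0.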

How the data were processed

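The 6 columns of the table that the authors deposited hold unnormalised whole counts for Ensembl genes, and no column was left unused. The submitters' processing notes list STAR, Salmon, DESeq2 1.34.0 and GRCm38, without saying which made the counts or how strand was treated. Per the labels' protocols, a stranded kit followed removal of ribosomal RNA, and another kit is named as well.

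Counts were fitted across all genes with edgeR 4.0.16 in R 4.3.3 (robust quasi-likelihood test, two-sided, TMM, default low-count filter, group as the only term), with Benjamini-Hochberg adjustment over 11224 genes and a threshold of 0.05. Standard errors and 95% intervals were derived from the F statistics. The script was first tested on simulated data. Gene positions and merged exon lengths came from GENCODE M21, and promoters from RefSeq (GRCm38.p6), where 8 of 9 members matched. Alternatives were other scalings and filters, DESeq2 1.42.0, limma 3.58.1 (voom), a replicate block, structural and mitochondrial RNA genes removed, each library left out, and, chosen after seeing the data, only the libraries with few neutrophil transcripts. The members, lists and tests were chosen with earlier results of these data known. Named by rule were all members, Setdb1 and up to 4 called genes of each list or else its 2 highest. So were genes near a called member and the 3 closest patterns. Other genes, among them cell type markers such as Myod1 and Pax7, were chosen after their values were seen. This is not said beside each of them.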

Additional observations from a re-analysis of the deposited data

How the results depend on the processing

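Over all genes, 249 were called higher and 69 lower. DESeq2 called 147 and 37, limma-voom called 34 lower, no low-count filter gave 138 lower, and leaving out 1 library gave 133 to 255 higher and 15 to 90 lower. Higher calls were 142, 133 and 158 without control library 2, KO library 1 and KO library 2, and lower calls were 38, 15, 19, 22 and 43 without control library 1, control library 2 and KO libraries 1, 2 and 3. The 3 libraries with few neutrophil transcripts, which leave 1 KO library assumed to vary like the controls, gave 641 and 641. Members called lower numbered 0 with upper quartile factors and 0 to 1 with a library left out, and without a low-count filter 1 member, Igfbp4, was called higher. The signs of Insr and Igfbp6, neither of which was called, turned in 1 and 6 of 16 alternatives, and the 7 others kept theirs in all 16. With the replicate number as a block, 41 genes were lower and 206 higher, and the members' calls were as before (Igfbp3 -1.64, edgeR adjusted p = 0.0271), but those of Pdk4 and Krt18 ended (0.055 and 0.058). Libraries sharing a number did not deviate together (correlations of 0.317, -0.192 and 0.018 over 7338 genes), so the numbers were not taken as pairs. With lengths of longest transcripts, Igfbp3 still led in controls and Igfbp5 in KO cells. Depth limits Igfbp2 most, with 6 to 18 counts a library.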

Other observations

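The spread between libraries differed between members and groups. In controls the SD was 43.2%, 33.2%, 54.8% and 56.4% of the mean for Igfbp4, Igfbp5, Igfbp6 and Igfbp7, and in KO libraries it was 17.4%, 4.6%, 8.8% and 7.8%. For Insr, Igfbp2 and Igfbp3 it was larger in KO libraries (19.7%, 38.5% and 43%) than in controls (2.6%, 13.6% and 2.3%). With 3 libraries a group these spreads were not tested against each other. The part of counting noise in them was not separated out, and Insr had only 61 to 91 and Igfbp2 only 6 to 18 counts a library.

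Within 500 kb of the members' starts, 53 other genes were tested and 1 was called, beside 2.83% called of all genes tested. The called gene was Krt18, a keratin gene that starts 116.2 kb from Igfbp6 on chromosome 15 and was named after its value was seen. It was at 6.01, 7.51 and 6.83 CPM in controls and 2.93, 2.46 and 2.74 CPM in KO cells (log2 fold change -1.32, SE 0.30, edgeR adjusted p = 0.0285), and it was called in 7 of 16 alternatives. Among FOXO target genes that did not pass, 2 are given here, chosen after their values were seen. Fbxo32, a ubiquitin ligase gene of muscle atrophy, was at 7.61, 13.2 and 10.9 CPM in controls and 23.7, 17.2 and 15.0 CPM in KO cells (edgeR adjusted p = 0.0747). Ccng2 was at 23.0, 25.9 and 24.2 CPM in controls and 30.1, 38.0 and 28.3 CPM in KO cells (edgeR adjusted p = 0.181). In both genes, and in Bnip3, every KO library lay above every control, and with Pdk4, which was lower, groups did not overlap in 4 of the 7 tested, beside 24.3% of all genes tested. The groups overlapped in the other 3, with log2 fold changes of 0.30 for Gabarapl1, 0.04 for Cdkn1b and -0.05 for Cited2.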
